A study of Sus scrofa with 32 samples.

Results

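The genes that bring glucose into the cell, break it down to pyruvate and decide what becomes of the pyruvate were followed through the luminal epithelium (LE), the glandular epithelium (GE), the blood vessels (BV) and the stroma (S) of pig endometrium on Day 14. The set holds 43 genes, chosen by symbol, and each symbol was found among the 30185 genes counted. It comprises 5 genes of glucose entry, 6 of the hexose phosphate steps, 3 that control fructose-2,6-bisphosphate, 9 of the triose steps, 4 of lactate, 3 of the pyruvate dehydrogenase complex, the 4 kinases of that complex, 3 gluconeogenic or anaplerotic genes, 4 of glycogen and 2 of oxygen sensing. Detectable, that is, kept in the authors' filtered count table, were 37 of the 43 in LE, 40 in GE and 36 in each of BV and S. In all, 40 were detectable in at least 1 compartment and 35 in all 4.

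Glucose crosses the cell membrane through facilitative transporters of the SLC2A (GLUT) family or, together with sodium, through SLC5A1 (SGLT1). Hexokinase traps it as glucose 6-phosphate, phosphofructokinase commits it to glycolysis, and the PFKFB enzymes make and remove fructose-2,6-bisphosphate, a potent activator of phosphofructokinase. Pyruvate is then reduced to lactate by lactate dehydrogenase or oxidized by pyruvate dehydrogenase, which the PDK kinases switch off by phosphorylation. In early pregnancy the uterine epithelium passes glucose into the lumen for the conceptus and stores part of it as glycogen.

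Each compartment was cut by laser capture from frozen endometrium of 4 cyclic gilts, here C128, C40, C42 and C78, and 4 pregnant gilts, here P139, P39, P41 and P43, with 1 library for each gilt and compartment. All were prepuberal gilts whose cycle had been synchronized with eCG and hCG. The pregnant gilts had been inseminated with semen, and the cyclic ones, labelled nonpregnant, with the supernatant of semen from the same boar. Pregnant endometrium came from the hyperemic zones at which the conceptus lies, after its removal, so the pregnant values describe those zones and not the whole horn. The GE library of P41 had been removed by the submitters, which leaves n = 3 in pregnant GE and n = 4 in every other group, 31 libraries in all.

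Libraries held between 2415216 and 7081556 counts (median 3624021). Levels are CPM, counts scaled to a common library total after TMM normalization of all 31 libraries together, and fold changes between stages are those of the compartment's own quasi-likelihood fit. For LE the limit of a call was a false discovery rate of 1%. For the other compartments it was an unadjusted p of at most 0.000328, which was the highest p of an LE call, and "rose" and "fell" are used of called genes only. The summed level of 6 epithelial markers was 1703-3079 CPM in LE, 1170.4-1460.1 CPM in GE, 2.56-236 CPM in BV and 8.38-385 CPM in S. Markers of fibroblasts were also present in the epithelium, where 6 of them summed to 4097-16514 CPM in LE against 36616-106304 CPM in S. In such captures fewer cells of a type and less RNA per cell cannot be told apart.

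SLC2A1, SLC2A3 and PFKFB3 had the largest called changes and are shown with the 250 bases before their annotated start on Sscrofa11.1 (RefSeq), read in the direction of transcription. Capitals mark ACGTG or GCGTG on either strand, the core bound by hypoxia-inducible factors, whose known targets include many glycolytic genes. SLC2A1 (gene ID 102164419, chromosome 6 from 168535398 to 168561170, 10 exons) is preceded by chr6:168535148-168535397 on the plus strand. SLC2A3 (gene ID 100626468, chromosome 5 from 62963635 to 63041955, 12 exons) is preceded by chr5:63041956-63042205 on the minus strand. PFKFB3 (gene ID 100516289, chromosome 10 from 64776315 to 64859118, 17 exons) is preceded by chr10:64859119-64859368 on the minus strand.
SLC2A1: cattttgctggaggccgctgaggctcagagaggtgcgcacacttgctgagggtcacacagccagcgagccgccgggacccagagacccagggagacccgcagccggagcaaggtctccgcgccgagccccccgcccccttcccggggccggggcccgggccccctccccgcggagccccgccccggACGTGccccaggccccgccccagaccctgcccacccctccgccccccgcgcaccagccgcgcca
SLC2A3: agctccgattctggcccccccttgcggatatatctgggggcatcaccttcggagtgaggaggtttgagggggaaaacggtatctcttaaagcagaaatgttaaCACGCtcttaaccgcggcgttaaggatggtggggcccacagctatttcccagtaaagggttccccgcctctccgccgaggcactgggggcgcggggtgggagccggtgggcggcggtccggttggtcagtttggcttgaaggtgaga
PFKFB3: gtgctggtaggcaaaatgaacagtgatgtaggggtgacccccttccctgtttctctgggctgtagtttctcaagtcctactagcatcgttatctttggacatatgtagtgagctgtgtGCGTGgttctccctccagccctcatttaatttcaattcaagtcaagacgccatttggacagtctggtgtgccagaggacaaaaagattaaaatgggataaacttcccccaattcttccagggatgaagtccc
The SLC2A1 window holds 1 ACGTG, and the SLC2A3 and PFKFB3 windows hold 1 GCGTG each. ACGTG was present in 17 of the 43 members' windows and in 20.9% of those of 13000 detectable protein-coding genes. GCGTG was present in 17 of the 43 and in 37.8% of all, and at least 1 of the pair in 25 of the 43 and in 49.7% of all. A match describes these letters and is not a binding site, and an annotated start need not be the one used in this tissue.

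Levels by compartment were compared in a joint fit of all libraries with the gilt as a block, averaged over both stages, with a limit of 1% on the false discovery rate. LE and GE differed in 24 of 40 members, 17 of them higher in LE, while 41.4% of all genes differed. LE differed from BV in 26 (15 higher in LE, 49.2% of all genes called) and from S in 22 (16 higher in LE, 50.6% of all genes called). GE differed from BV in 26 (10 higher in GE, 58.3% of all genes called) and from S in 19 (11 higher in GE, 59.3% of all genes called). Between BV and S 4 members differed (7.19% of all genes called), with 3 called without C128, 2 called without C40, C42, C78, P139, P39 or P41 and 1 called without P43.

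Averaged over both stages, the 5 glucose entry genes had their highest mean in LE, though not every difference was called. SLC2A1, the widespread basal glucose transporter, was 19.3-fold higher in LE than in BV (log2 4.27, standard error 0.41), 6.63-fold higher than in S and 4.51-fold higher than in GE. SLC2A3, a transporter of high affinity, was 12.6-fold higher in LE than in GE, and GE also lay below BV (5.72-fold) and S (8.21-fold). Its LE level was not called above S (adjusted p = 0.0171). In pregnant gilts its LE libraries (16.7-25.8 CPM) lay below every BV and S library. The averages of SLC2A1 and SLC2A3 span stages that differed widely in LE, as described with the stages. SLC2A8, a transporter found mostly on intracellular membranes, was 8.24-fold higher in LE than in GE and 18.0-fold higher than in BV. In BV it was not detectable, with 1.14-3.69 CPM, so the size of that ratio is uncertain. For SLC2A12 the LE level was 2.96-fold that of GE and 5.25-fold that of S. Its GE average spans stages that differed in GE, as described with the stages. SLC5A1, the sodium-coupled transporter, was 13.9-fold higher in LE than in BV and 10.1-fold higher than in S. LE and GE were not called for it (log2 0.45, standard error 0.72), and its LE mean includes 454 CPM in C128. HK1, the widespread hexokinase, had 111 ± 11.2 CPM in LE (SD over both stages, n = 8) and 37.4 ± 3.89 CPM in GE (n = 7), 2.99-fold apart in the fit.

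The members with their highest level in GE included PYGL, GBE1 and PC. PYGL, the liver-type glycogen phosphorylase, was 9.10-fold higher in GE than in LE, 2.65-fold higher than in BV and 3.57-fold higher than in S. The branching enzyme of glycogen synthesis, GBE1, had 66.6 ± 27.0 CPM in GE against 24.9 ± 2.93 CPM in LE. Pyruvate carboxylase PC, which turns pyruvate into oxaloacetate, was 5.14-fold higher in GE than in LE and 8.36-fold higher than in BV. EGLN3, a prolyl hydroxylase that marks HIF proteins for destruction, was detectable in GE alone, at 16.5-fold the LE level. In LE it had 0-5.69 CPM, so the size of that ratio is uncertain. LDHB, the heart-type subunit of lactate dehydrogenase, had 621 ± 595 CPM in GE and 155 ± 45.8 CPM in LE, 3.22-fold apart in the fit.

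LDHB counts are uncertain. The symbol is carried by gene ID 102161427 on chromosome 5 (from 51810932 to 51831218, 8 exons), used here, and by gene ID 100621540 on chromosome 2 (from 12988754 to 12990033, 1 exon), which matches it over 1271 bases at 99.14% identity and overlaps an annotated pseudogene. The chromosome 2 locus had 39.3 ± 57.2 CPM in GE and 8.24 ± 6.24 CPM in LE, so reads may have been split between the loci. No other member had a second locus with at least 200 matching bases at 95% identity.

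SLC16A1 was highest in BV and S, and PDK1 in BV. SLC16A1, the monocarboxylate carrier that moves lactate across the membrane, had 36.1 ± 17.4 CPM in BV and 37.9 ± 17.3 CPM in S against 11.8 ± 6.22 CPM in LE and 6.61 ± 3.45 CPM in GE. BV and S were not called for it (log2 -0.11, standard error 0.27). PDK1 was 4.23-fold higher in BV than in LE and 3.14-fold higher than in GE. Its 2.48-fold difference between BV and S was called (adjusted p = 0.00469), though lost in 5 of the 8 fits that left out 1 gilt, and S was called above neither GE (adjusted p = 0.333) nor LE (adjusted p = 0.0304). PDK4 was lowest in LE, where 128.02 ± 76.8 CPM compared with 295 CPM in GE, 422 CPM in BV and 399 CPM in S, and S was not called above GE (adjusted p = 0.0141). PYGB, the brain-type phosphorylase, had 37.8 ± 13.1 CPM in S, 2.45-fold the LE level and 3.40-fold the GE level. ENO1, the main glycolytic enolase, had 142 CPM in BV, 109.99 CPM in S, 101 CPM in LE and 42.01 CPM in GE, whereas pyruvate kinase PKM stayed between 164 and 194 CPM.

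Levels per kilobase here use the union of a gene's exons, which can be far longer than a transcript. For GAPDH the union was 4718 bases and the median transcript 1419 bases, so this scale sets GAPDH low. The ranking holds for this scale only, and none was made on transcript length. On it, the most abundant member depended on the group. It was HIF1A in cyclic LE (140.3 CPM per kb) and SLC2A1 in pregnant LE (423 CPM per kb). In GE it was LDHB in both stages (573 and 259 CPM per kb in cyclic and pregnant gilts). The cyclic GE mean was 313 CPM per kb without C128, below SLC2A1 in pregnant LE. LDHB also led in BV (137 and 163 CPM per kb). In S it was LDHB in cyclic (137 CPM per kb) and PDK4 in pregnant gilts (136 CPM per kb). PDK4 replaced LDHB in pregnant BV without P139 or P41, and LDHB replaced PDK4 in pregnant S without P39 or P43.

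**Figure D1:**
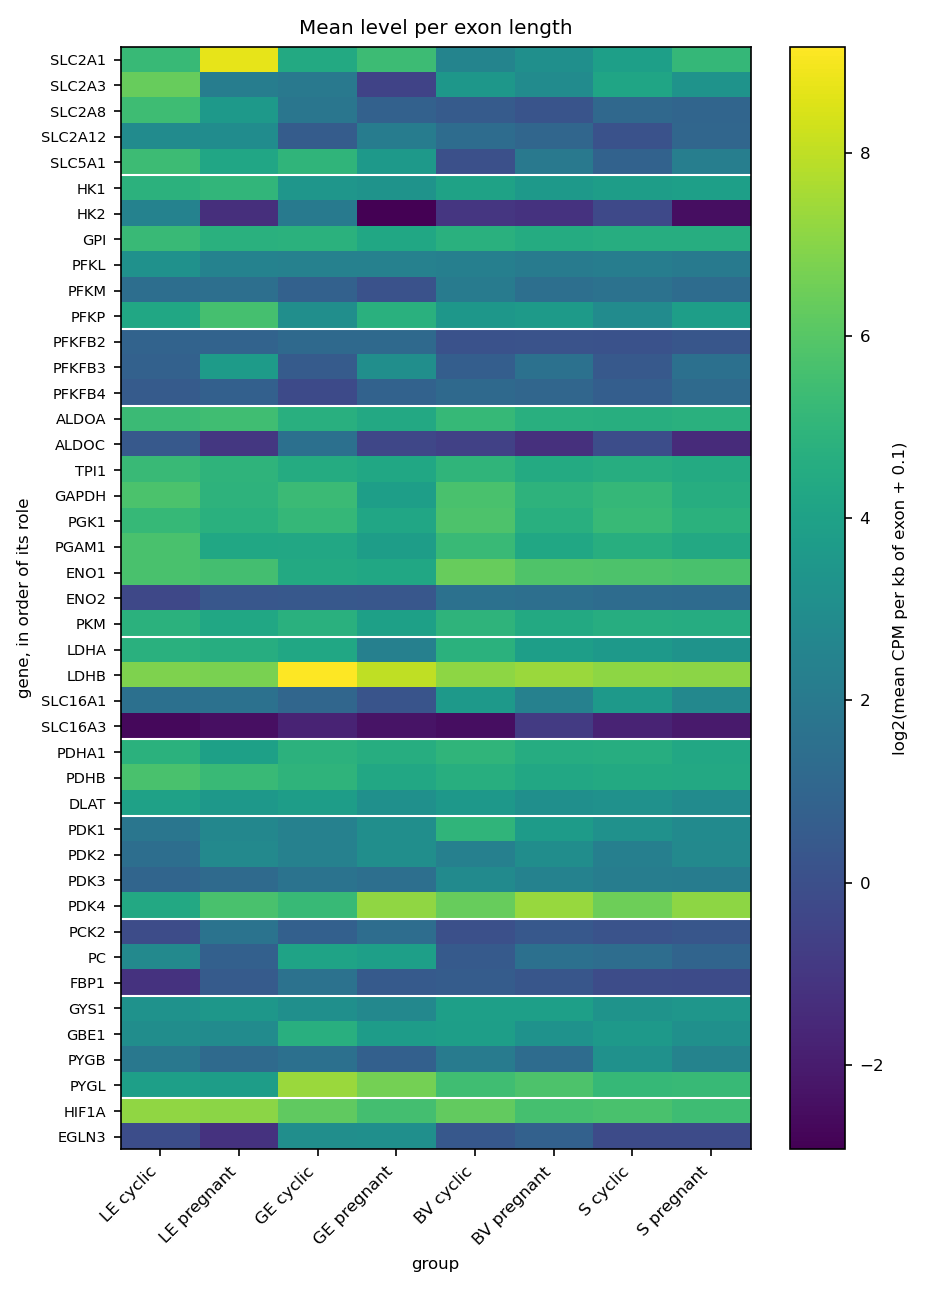
Mean level of the 43 genes in the 8 groups, in log2 of CPM per kilobase of exon plus 0.1, with genes ordered by role and white lines between roles. LDHB in cyclic GE (573 CPM per kb) and SLC2A1 in pregnant LE (423 CPM per kb) have the highest means, and without C128 the former is 313 CPM per kb.

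Whether pregnancy changed these genes was asked compartment by compartment. In LE 4 of 37 members were called, where 3.32% of all genes were. SLC2A1, PFKFB3 and PDK2 rose (background for a rise 2.02%) and SLC2A3 fell (background for a fall 1.29%). The median log2 fold change of the 37 was -0.08, against -0.01 over all genes. Pregnant and cyclic libraries did not overlap for 13 of them and for 19.4% of all genes. Of these, 6 were higher in pregnant gilts (10.3% of all genes) and 7 lower (9.12% of all genes).

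SLC2A1 had 78.1, 107, 102 and 96.9 CPM in LE of C128, C40, C42 and C78, and 1436, 1177, 624 and 1168 CPM in LE of P139, P39, P41 and P43. The lowest pregnant library lay above every cyclic one, and above every GE, BV and S library, of which the highest had 149 CPM. By the quasi-likelihood test of edgeR, with Benjamini-Hochberg adjustment as throughout, SLC2A1 rose 11.6-fold (log2 3.54, standard error 0.29, adjusted p = 0.000376), with a log2 fold change from 3.36 to 3.74 when any 1 library was left out.

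SLC2A3 moved the other way. It had 405, 401, 483 and 260.3 CPM in the same cyclic gilts and 16.7, 24.2, 25.8 and 18.6 CPM in the pregnant ones, in the same order. Every pregnant LE library lay below every cyclic LE library and also below every S library, the lowest of which had 36.8 CPM. SLC2A3 fell 17.9-fold (log2 -4.16, standard error 0.24, adjusted p = 7.11e-05), between -4.30 and -4.04 with any 1 library left out. Of the length-scaled level of SLC2A1 and SLC2A3 together, SLC2A1 made up 25.9-40.3% in cyclic and 97.8-99.4% in pregnant LE.

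PFKFB3, the PFKFB enzyme that mostly makes rather than removes fructose-2,6-bisphosphate, had 8.56, 8.96, 17.1 and 6.60 CPM in cyclic LE and 89.5, 70.6, 54.6 and 104.4 CPM in pregnant LE. The groups lay well apart, and PFKFB3 rose 7.87-fold (log2 2.98, standard error 0.33, adjusted p = 0.00162), a call kept with any 1 library left out. The other members of its family, PFKFB2 and PFKFB4, had log2 fold changes of -0.01 and 0.27 and were not called. By length-scaled level PFKFB3 made up 21.7-59.1% of the 3 in cyclic and 73.5-81.9% in pregnant LE.

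PDK2, a widely expressed kinase of pyruvate dehydrogenase, had 12.3, 6.55, 7.99 and 9.10 CPM in cyclic and 24.9, 24.2, 19.8 and 22.4 CPM in pregnant LE, without overlap. It rose 2.57-fold (log2 1.36, standard error 0.23, adjusted p = 0.00792). The call was lost without any 1 of C40, C42, C78, P139, P39, P41 and P43, with adjusted p from 0.0130 to 0.0292. The 4 kinases had positive log2 fold changes in LE, 0.27 to 1.36, and the 3 pyruvate dehydrogenase genes negative ones, -0.83 to -0.41, and among these 7 genes only PDK2 was called.

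**Figure D2:**
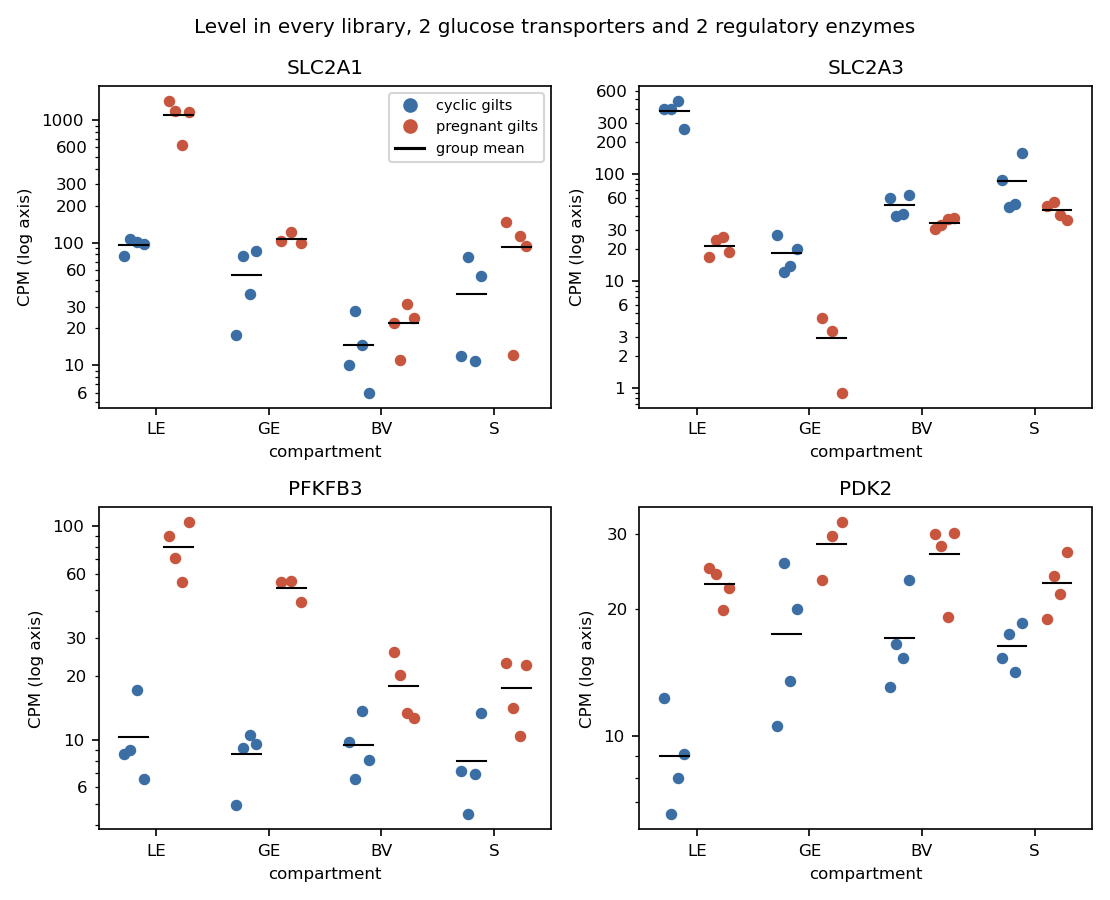
Level (CPM, log axis) of SLC2A1, SLC2A3, PFKFB3 and PDK2 in every library of the 4 compartments, with cyclic gilts in blue, pregnant gilts in red and a line at the mean of each group. In LE the pregnant libraries of SLC2A1 lie between 624 and 1436 CPM, above all cyclic ones, and those of SLC2A3 between 16.7 and 25.8 CPM, below all cyclic ones.

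SLC2A8, PGAM1 and PC missed the LE limit in the quasi-likelihood test and passed it with edgeR's robust GLM and with DESeq2, which called 12 (11.8% of all genes) and 8 members (11.2% of all genes). SLC2A8 had 95.8, 88.7, 79.3 and 71.4 CPM in LE of cyclic and 20.6, 12.7, 42.7 and 20.8 CPM in that of pregnant ones (log2 fold change -1.76, standard error 0.32, adjusted p = 0.0101), and was called without P41 (adjusted p = 0.00214). PGAM1, the phosphoglycerate mutase of glycolysis, had 127, 108, 85.0 and 63.5 CPM against 24.2, 28.0, 48.1 and 42.3 CPM (log2 fold change -1.41, standard error 0.27, adjusted p = 0.0126), and was called without C78 (adjusted p = 0.00796). Neither gene overlapped between the stages. For PC, C128 had 54.3 CPM, the other cyclic gilts 10.3-17.7 CPM and the pregnant gilts 2.23-8.32 CPM (log2 fold change -2.01, standard error 0.59, adjusted p = 0.0610).

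Of the remaining members in LE the smallest p-values were those of PKM (log2 fold change -0.53, adjusted p = 0.0445), PDHA1, a subunit of pyruvate dehydrogenase (-0.83, adjusted p = 0.0450), and PDK1 (0.89, adjusted p = 0.0655). PDK1 had 21.9 CPM in C128, 9.78-11.4 CPM in the other cyclic and 20.8-26.3 CPM in the pregnant gilts, and was called without C128 (adjusted p = 0.00641). PDK1, PFKP, PDK4, PCK2 and GAPDH passed with the robust GLM alone, and PKM with DESeq2 alone. PFKP had 16.9, 52.0, 69.9 and 68.0 CPM in cyclic and 111, 105, 111 and 194 CPM in pregnant LE, without overlap (log2 fold change 1.33, adjusted p = 0.0702). PDK4 had 34.3-134 CPM against 122-243 CPM (1.31, adjusted p = 0.0970), and PCK2, the mitochondrial PEP carboxykinase, 0.218-5.01 against 6.28-8.32 CPM (1.85, adjusted p = 0.102). GAPDH, the glyceraldehyde phosphate dehydrogenase of glycolysis, had 259, 325, 253 and 179.5 CPM in cyclic and 107, 92.9, 233 and 133 CPM in pregnant gilts, with overlap (log2 fold change -0.83, adjusted p = 0.101). In the same LE libraries the 6 epithelial markers summed to 2499-3079 CPM in cyclic and 1703-2101 CPM in pregnant gilts, and 5 smooth muscle markers to 154-381 and 93.2-115 CPM, both without overlap. The fibroblast markers overlapped (4097-14365 and 10262-16514 CPM). No marker of these lists was at 0 in any group, and their part in the LE values was not tested.

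In GE 2 of 40 members were called, both higher in pregnant gilts, where 0.748% of all genes were called and 0.512% were called higher. PFKFB3 had 4.97, 9.22, 10.5 and 9.54 CPM in C128, C40, C42 and C78, and 54.9, 55.3 and 44.2 CPM in P139, P39 and P43. The stages lay well apart here too, and PFKFB3 rose 5.94-fold (log2 2.57, standard error 0.26, adjusted p = 0.0276), a call kept with any 1 library left out. SLC2A12, another transporter of the SLC2A family, had 12.1, 9.22, 6.06 and 11.7 CPM in the cyclic and 28.5, 32.2 and 29.3 CPM in the pregnant gilts, without overlap. It rose 3.05-fold (log2 1.61, standard error 0.25, adjusted p = 0.0394), a call that needed each of C40, C78, P139, P39 and P43 (without 1 of them adjusted p from 0.0573 to 0.109).

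SLC2A1 in GE had 17.7, 77.7, 38.0 and 85.6 CPM in cyclic and 103, 122 and 98.6 CPM in pregnant gilts. The stages did not overlap, but the difference was not called (log2 fold change 0.96, standard error 0.47, adjusted p = 0.270). SLC2A3 in GE had 26.6, 12.2, 13.7 and 19.7 CPM against 4.53, 3.41 and 0.896 CPM (log2 fold change -2.57, standard error 0.50, adjusted p = 0.0493), past the limit of the robust GLM and DESeq2 but not of the quasi-likelihood test.

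PDK4, PFKP, PGK1, GBE1, LDHA and GAPDH in GE likewise passed with the robust GLM and DESeq2 only, and none of them overlapped between the stages. PDK4, the kinase induced by fasting and fatty acids, had 43.4, 142, 201.2 and 140.1 CPM in cyclic and 423, 474 and 641 CPM in pregnant GE (log2 fold change 1.94, standard error 0.45, adjusted p = 0.0684), and was called without C128 (adjusted p = 0.0254). PFKP, the platelet-type phosphofructokinase, had 7.99, 29.7, 21.0 and 28.4 CPM against 88.5, 40.1 and 88.4 CPM (log2 fold change 1.72, adjusted p = 0.0875). These were the pair with higher values in pregnant gilts. PGK1, the phosphoglycerate kinase of glycolysis, had 81.0, 49.3, 65.8 and 53.2 CPM against 33.6, 27.3 and 38.5 CPM (log2 fold change -0.92, adjusted p = 0.0706). LDHA, the muscle-type subunit of lactate dehydrogenase, had 26.5-78.4 CPM against 7.08-24.5 CPM (-1.98, adjusted p = 0.0885), GBE1 57.4-104.0 against 31.97-51.8 CPM (-0.97, adjusted p = 0.0832) and GAPDH 102-348 against 58.2-85.4 CPM (-1.46, adjusted p = 0.107).

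Of the rest in GE the smallest p-values belonged to HIF1A, the oxygen-regulated HIF subunit (log2 fold change -0.68, adjusted p = 0.0601), PDHB (-0.61, adjusted p = 0.127) and PFKFB4 (1.15, adjusted p = 0.131). The 9 triose genes had log2 fold changes of -2.01 to -0.02, the 3 detectable lactate genes -1.98 to -0.94 and the 4 glycogen genes -0.97 to -0.40, all negative and none called, although ENO1 changed sign without C128, TPI1 without P43 and ENO2 without any 1 of C128, C78, P39 and P43. The median of the 40 members was -0.39, against -0.01 over all genes. The stages did not overlap for 18 of them (22.9% of all genes), 6 higher in pregnant gilts (11.6% of all genes) and 12 lower (11.3% of all genes). The robust GLM called 9 (6.66% of all genes) and DESeq2 10 (6.64% of all genes). In these libraries the epithelial markers summed to 1313-1460.1 CPM in cyclic and 1170.4-1395 CPM in pregnant gilts, with overlap, and 6 leukocyte markers to 18.2-29.97 and 63.1-95.3 CPM, without, and their part in the GE values was not tested.

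**Figure D3:**
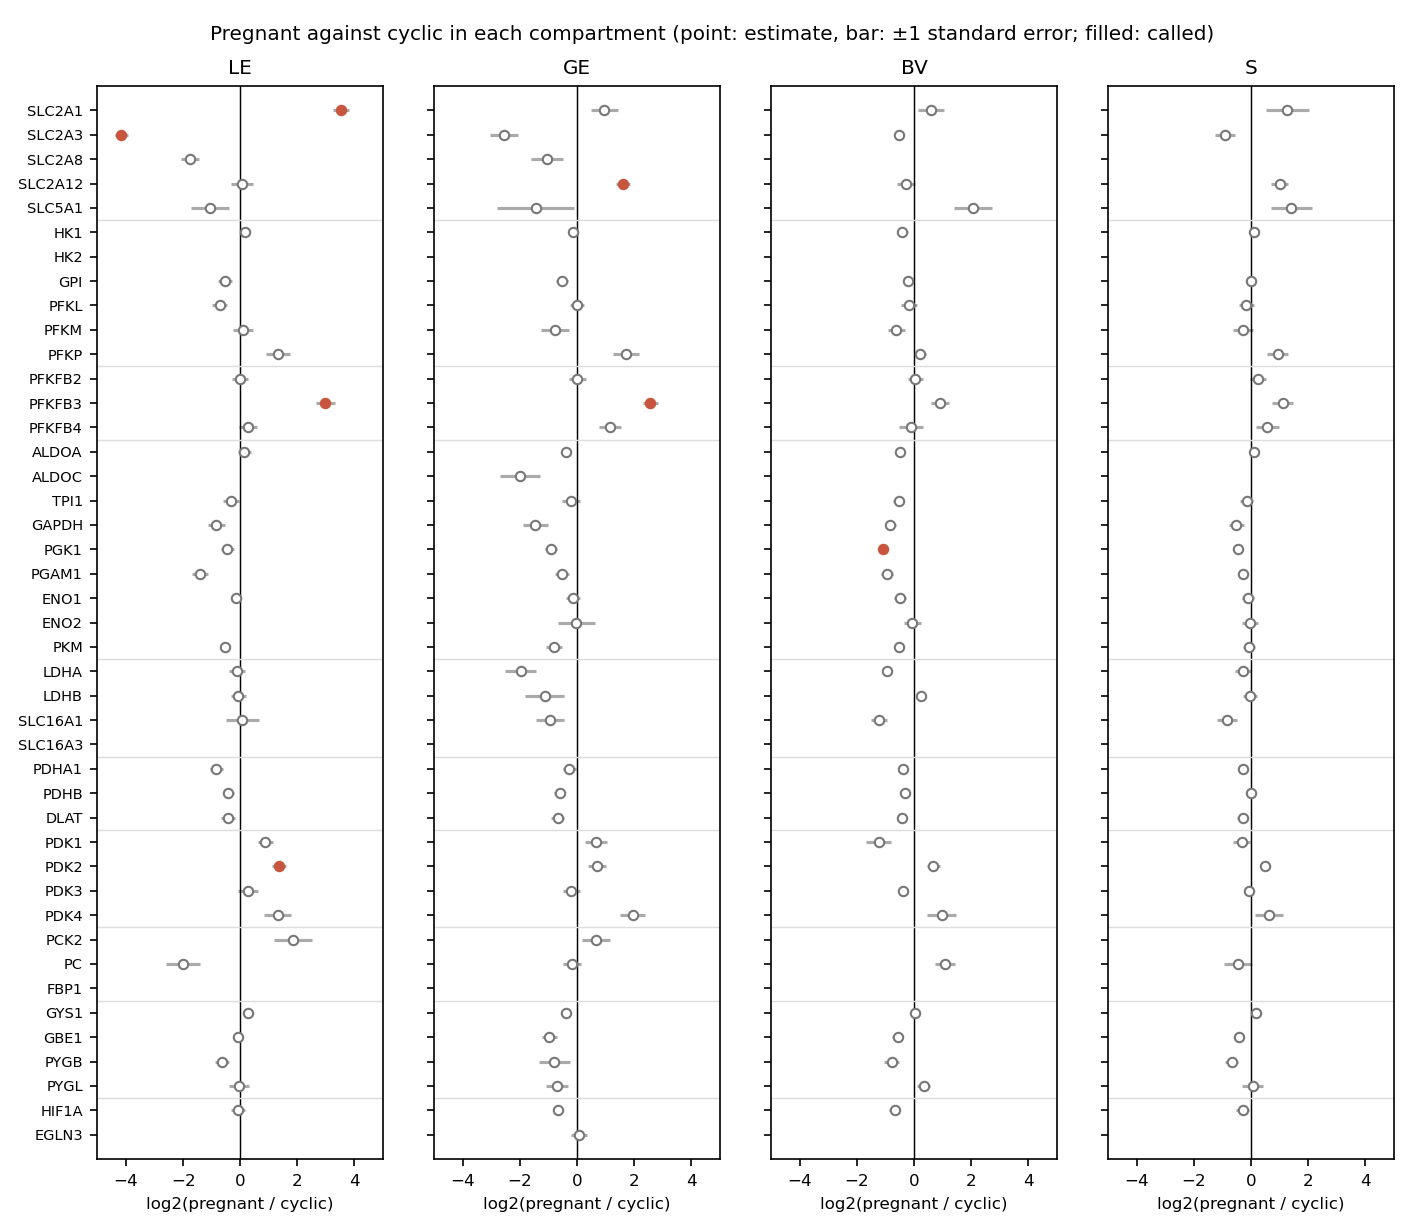
Log2 fold change of pregnant over cyclic gilts for each member in each compartment, with bars of 1 standard error and filled red points for called genes, ordered by role. A member without a point was not detectable there, and the 7 filled points are SLC2A1, SLC2A3, PFKFB3 and PDK2 in LE, SLC2A12 and PFKFB3 in GE and PGK1 in BV.

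In BV 1 of 36 members was called, lower in pregnant gilts, where 1.86% of all genes were called and 0.559% were called lower. PGK1 (gene ID 407608, chromosome X from 62187472 to 62210321, 11 exons) had 85.7, 93.8, 110.1 and 100.3 CPM in C128, C40, C42 and C78 and 38.5, 45.5, 51.7 and 44.9 CPM in P139, P39, P41 and P43. All pregnant libraries lay below all cyclic ones, and PGK1 fell 2.14-fold (log2 -1.10, standard error 0.14, adjusted p = 0.0130), from -1.17 to -1.03 and always called with any 1 library left out.

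LDHA, PGAM1, SLC16A1 and GAPDH in BV passed with the robust GLM and DESeq2 but not with the quasi-likelihood test, and none of them overlapped between the stages. LDHA had 67.2, 67.4, 91.1 and 88.0 CPM in BV of cyclic and 41.9, 33.0, 50.6 and 37.1 CPM in that of pregnant ones (log2 fold change -0.94, standard error 0.18, adjusted p = 0.0185). PGAM1 had 60.9, 73.1, 64.2 and 82.4 CPM against 25.8, 30.7, 47.1 and 40.1 CPM (log2 fold change -0.95, adjusted p = 0.0247). In SLC16A1 the values were 46.4, 57.8, 46.0 and 52.7 CPM against 14.4, 14.8, 36.4 and 20.4 CPM (log2 fold change -1.23, adjusted p = 0.0335), with P41 nearest to the cyclic gilts. LDHA and SLC16A1 were called without P41 (adjusted p = 0.0203 and 0.00799). GAPDH had 284, 199.6, 211 and 294 CPM against 177, 118, 149 and 107 CPM (log2 fold change -0.83, adjusted p = 0.0381).

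Next came PKM (log2 fold change -0.54, adjusted p = 0.0484), HIF1A (-0.68, adjusted p = 0.0540) and SLC5A1 (2.06, adjusted p = 0.0842). SLC5A1 had 3.36, 5.10, 3.41 and 2.55 CPM in cyclic and 25.8, 1.14, 15.3 and 18.6 CPM in pregnant BV, and was called without P39 (adjusted p = 0.0420). PDK1, past the limit of the robust GLM only, had 86.7, 90.5, 105 and 205 CPM against 101, 44.7, 32.2 and 27.8 CPM (log2 fold change -1.24, adjusted p = 0.101). The 8 detectable triose genes had negative log2 fold changes in BV, -1.10 to -0.06, with PGK1 alone called and ENO2 changing sign without C78 or P39. Of the 36 members 11 did not overlap between the stages (18.2% of all genes), 11 of them lower in pregnant gilts (9.54% of all genes) and 0 higher (8.68% of all genes). The median was -0.39, against 0.0018 over all genes. The robust GLM called 7 (11.0% of all genes) and DESeq2 6 (8.5% of all genes).

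The 6 epithelial markers summed to 2.56-40.2 CPM in cyclic and 129-236 CPM in BV of pregnant gilts, without overlap. Smooth muscle markers ranged over 5009-16104 CPM in cyclic (median 6341 CPM) and 721-6067 CPM in pregnant gilts (median 1457 CPM), with overlap. The 5 of them had negative log2 fold changes (median -1.72), none called. For 5 endothelial markers the ranges were 1413-2856 CPM (median 2363 CPM) and 1633-2866 CPM (median 2757 CPM), and these overlapped as well. Ribosomal RNA took 12.8-16.1% of the counts in cyclic and 16.4-16.9% in pregnant BV, also without overlap. The part of these markers and of ribosomal RNA in the BV values, PGK1 included, was not tested.

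**Figure D4:**
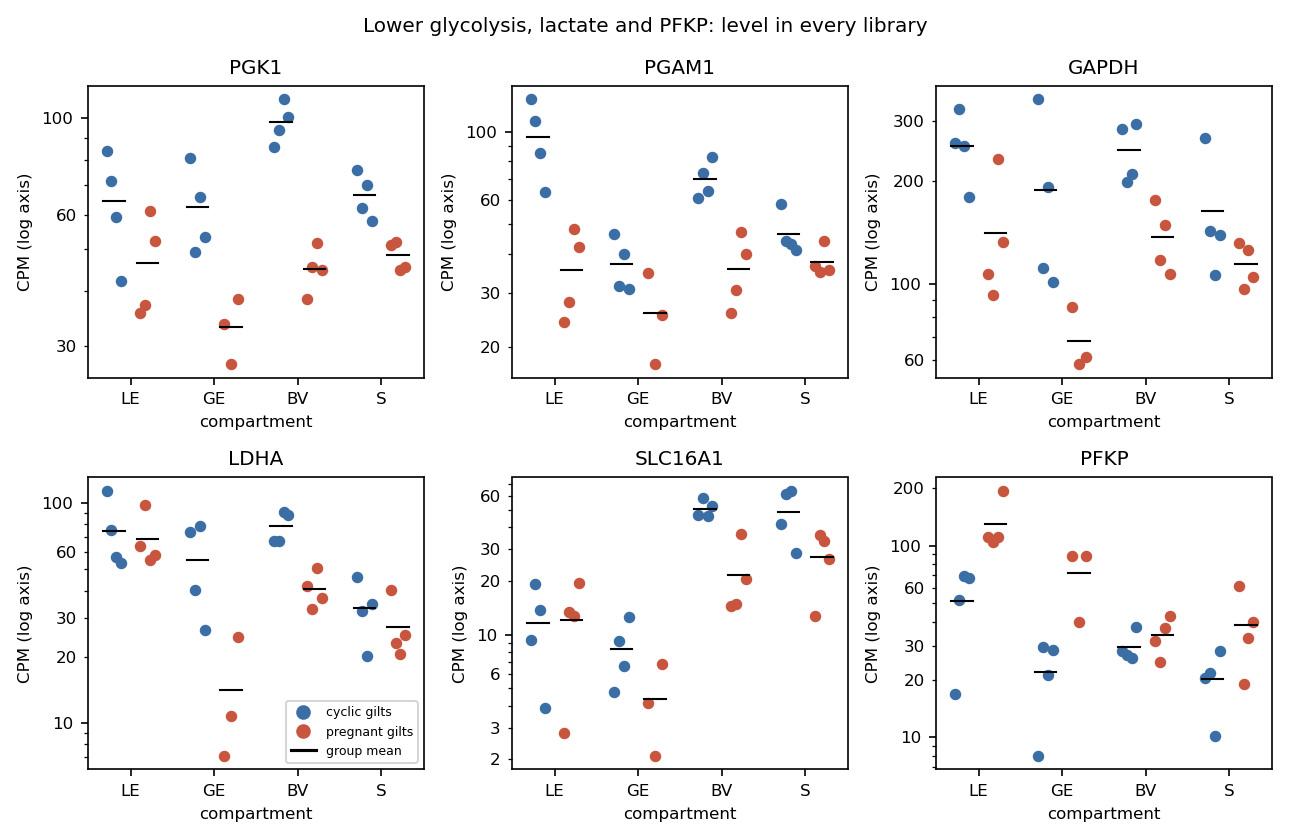
Level (CPM, log axis) of PGK1, PGAM1, GAPDH, LDHA, SLC16A1 and PFKP in every library, with cyclic gilts in blue, pregnant gilts in red and a line at each group mean. In BV the pregnant libraries of PGK1 lie between 38.5 and 51.7 CPM, below the cyclic ones at 85.7 to 110.1 CPM.

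In S the quasi-likelihood test called 0 of 36 members (0.293% of all genes), with 9 at an unadjusted p under 0.05, the robust GLM called 1, PFKFB3 (3.16% of all genes), and DESeq2 0 (2.6% of all genes). PFKFB3 had 7.15, 4.49, 6.93 and 13.4 CPM in cyclic and 22.9, 14.05, 10.5 and 22.5 CPM in pregnant S (log2 fold change 1.12, standard error 0.37, adjusted p = 0.231), and the stages overlapped. The smallest p-values were those of SLC2A12 (log2 fold change 1.003, adjusted p = 0.175), PGK1 (-0.45, adjusted p = 0.198) and PYGB (-0.67, adjusted p = 0.230). PGK1 had 76.0, 62.0, 69.99 and 57.9 CPM against 51.2, 52.0, 44.9 and 45.6 CPM, without overlap. Of the 36 members 3 did not overlap (8.81% of all genes), PDK2 higher in pregnant gilts (3.62% of all genes) and PGK1 and PYGB lower (5.19% of all genes). SLC2A1 in S spread over 10.9-76.5 CPM in cyclic and 12.1-149 CPM in pregnant gilts, and the epithelial markers there over 8.38-158 and 23.5-385 CPM. The 5 smooth muscle markers summed to 322-868 CPM in cyclic and 182-285 CPM in S of pregnant gilts, without overlap. The part of either list in the S values was not tested.

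Interaction terms tested whether the difference between stages itself differed between compartments, over the 35 members detectable in all 4. For LE against BV 2 members were called (3.37% of all genes), for LE against S 2 (1.48% of all genes) and across all compartments at once 2 (3.05% of all genes), each time SLC2A3 and PFKFB3. For LE against GE the quasi-likelihood test called 0 (1.54% of all genes), with 11 at an unadjusted p under 0.05. No other tool was run on these terms.

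The log2 fold change of SLC2A3 was lower in LE than in BV (difference -3.72, standard error 0.43, adjusted p = 2.97e-05) and than in S (difference -3.39, standard error 0.43, adjusted p = 0.000133), and both differences were called with any 1 gilt left out. Its own log2 fold change was -0.53 in BV and -0.92 in S, neither of them called. The log2 fold change of PFKFB3 was higher in LE than in BV (difference 2.08, standard error 0.41, adjusted p = 0.00269) and than in S (difference 1.93, standard error 0.40, adjusted p = 0.00749). The first call was lost without C128 (adjusted p = 0.0121) or P43 (adjusted p = 0.0174), and the second without any 1 of C128, C40, C78, P139, P39, P41 and P43 (adjusted p from 0.0169 to 0.0511).

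For PFKFB3 between LE and GE, where it rose in both, the interaction was not called (difference 0.54, standard error 0.41, adjusted p = 0.533). For SLC2A1 it was not called between LE and GE (difference 2.22, standard error 0.76, adjusted p = 0.0996), nor between LE and BV (difference 2.90, standard error 0.77, adjusted p = 0.0208). A rise of SLC2A1 in LE beyond that in GE or BV was thus not shown at this limit.

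The makeup of enzyme families is given as shares of CPM per kilobase, without a test. Shares here and above use the union of exons and depend on that scale. By median transcript length, for example, PFKFB3 in pregnant GE took 57.0-61.4% of its family. PFKP made up 24.7-74.2% of the 3 phosphofructokinases in cyclic and 82.4-88.7% in pregnant LE, and 24.6-68.3% and 72.9-84.5% in GE. In both epithelia the lowest PFKP share was that of C128. PFKFB3 took 16.6-40.1% of its family in cyclic and 66.5-69.3% in pregnant GE. PDK4 was the main kinase by median share in every group (63.1-88.9%), and PDK1 had its largest median share, 26.9%, in cyclic BV.

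LDHB made up 77.9-83.6% of both lactate dehydrogenase subunits in LE and 94.2-99.4% in GE. In BV its share was 79.4-85.9% in cyclic and 90.5-93.9% in pregnant gilts, without overlap. PYGL was 97.9-99.1% of PYGB and PYGL in GE and 72.4-89.6% in LE.

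**Figure D5:**
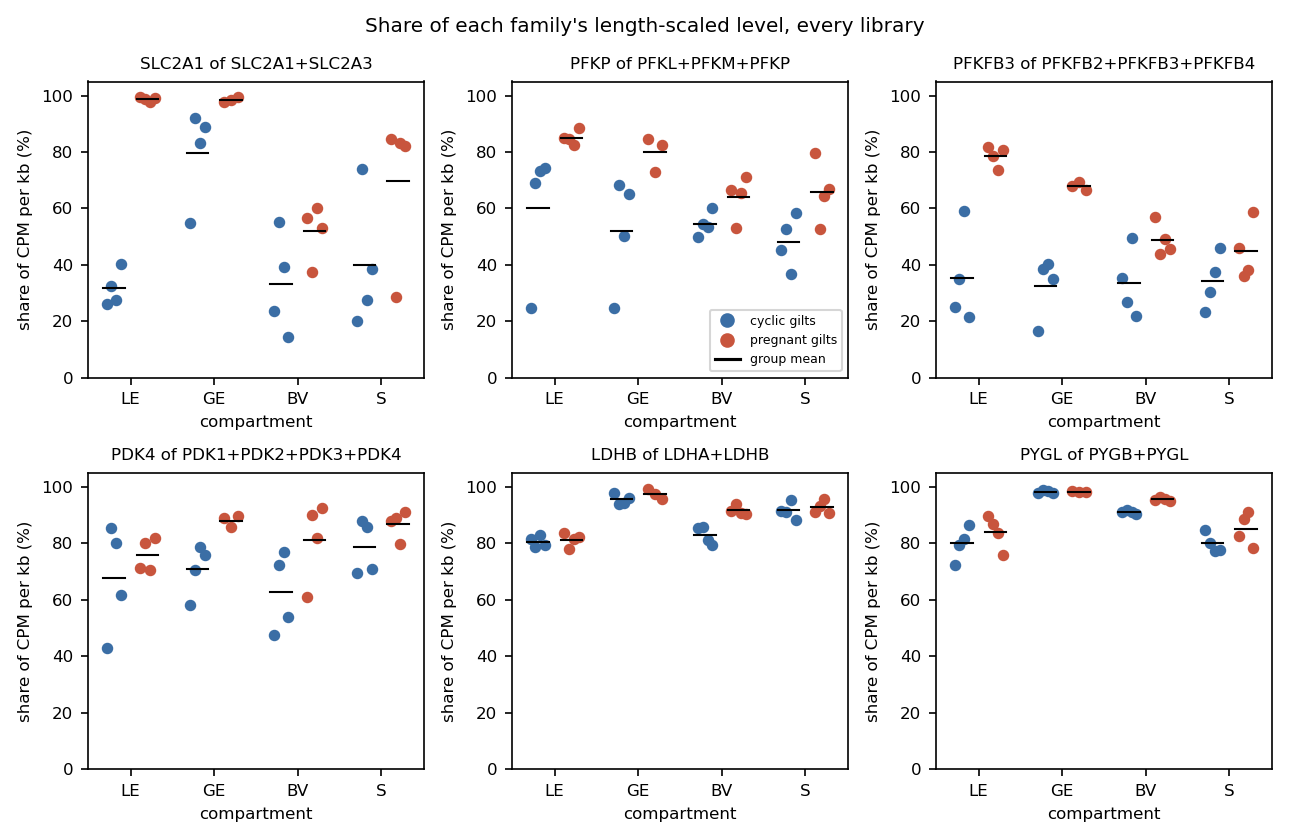
Share of 1 gene in the length-scaled level (CPM per kilobase of exon) of its family, in percent, for every library by compartment, with cyclic gilts in blue, pregnant gilts in red and a line at each group mean. The SLC2A1 share in LE lies at 25.9-40.3% in cyclic and 97.8-99.4% in pregnant gilts.

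HK2, SLC16A3 and FBP1 were detectable in no compartment. HK2, the inducible hexokinase, had 53.5 CPM in LE and 43.6 CPM in GE of C128 and at most 4.81 CPM in any other LE or GE library. It had 0 counts in GE of P139 and P39, which allows up to 3 counts, or 0.627 and 0.835 CPM of their library totals, counting error only. SLC16A3, the carrier that exports lactate from glycolytic cells, stayed at or below 3.34 CPM in all libraries, and FBP1, the gluconeogenic bisphosphatase, at or below 8.64 CPM. ALDOC and EGLN3 were detectable in GE only, SLC2A8 and PCK2 in LE and GE, and ENO2 in GE, BV and S.

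C128 stood apart in several members. Its GE library had 1918 CPM of LDHB against 329.9-654 CPM in the other cyclic gilts, 698 CPM of PYGL against 251-459 CPM and 7.78 CPM of SLC5A1 against 101-255 CPM. In LE its SLC5A1 was 454 CPM against 56.2-71.3 CPM. Without C128 the number of members called was 5 for LE, 3 for GE, 1 for BV and 0 for S.

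Some members overlap a gene on the opposite strand, among them SLC2A1 (ZNF691), SLC2A12 (TBPL1), PDK2 (SAMD14), PDK4 (ASB4) and GAPDH (IFFO1). On the same strand PFKFB2 overlaps the protein-coding C4BPB, GBE1 a pseudogene and GPI a long noncoding RNA gene. Overlap was judged on whole gene spans, and whether the pairs share exons was not tested. Whether counting used strand is not given in the sources used here, so reads from any shared exon cannot be told apart. SLC2A3, PFKFB3, PGK1 and LDHA have no such overlap.

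A further 87 genes around the pathway, 86 of them matched, were tested in the same fits: other transporters, glycolytic, pyruvate dehydrogenase, gluconeogenic, glycogen, lactate, pentose phosphate, fructose, hypoxia and regulatory genes. LE had 3 calls among 62 detectable genes, beside 3.32% of all genes, and BV 2 among 60, beside 1.86%, each higher in pregnant gilts. Both numbers are small and stand near the share over all genes. In LE these were BPGM, which makes 2,3-bisphosphoglycerate (35.7-53.5 CPM in cyclic and 85.1-134 CPM in pregnant gilts, adjusted p = 0.00405), UGP2, which makes UDP-glucose for glycogen (95.0-143 CPM in cyclic and 261-502 CPM in pregnant gilts, adjusted p = 0.00988), and the insulin receptor INSR (41.2-97.9 CPM in cyclic and 168-312 CPM in pregnant gilts, adjusted p = 0.00957). In BV they were IRS2, an adaptor of that receptor (6.05-20.4 CPM in cyclic and 31.0-61.4 CPM in pregnant gilts, adjusted p = 0.0166), and HIF3A (38.0-45.5 CPM in cyclic and 66.7-90.1 CPM in pregnant gilts, adjusted p = 0.0164). The LE number was 0 without C40, C42, P39 or P43 and 1 without P139, and the BV number 0 without C40, C42, P139 or P43 and 1 without C128 or P39.

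GE had 0 such calls among 61 genes by the quasi-likelihood test (0.748% of all genes), with 18 at an unadjusted p under 0.05, 6 by the robust GLM (6.66% of all genes) and 6 by DESeq2 (6.64% of all genes). S had 0 among 63 (0.293% of all genes), with 12 at an unadjusted p under 0.05, 4 by the robust GLM (3.16% of all genes) and 1 by DESeq2 (2.6% of all genes). The quasi-likelihood number became 1 in GE without C128 and in S without P39 or P41. The 4 detectable hypoxia targets outside the set had positive log2 fold changes in LE, GE and S and 3 of the 4 in BV, none called. Over all genes in LE, 5934 of 12002 were positive. Another list had only 1 sign in LE, where the 7 further pyruvate dehydrogenase genes were negative. The 7 further hypoxia sensing genes were split there, 4 positive and 3 negative. Signs within these lists were not tested.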

How the data were processed

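RNA of 4 laser-captured compartments of 8 gilts was sequenced as single reads. According to their methods and processing notes, the authors cut adapters off (Trim Galore), aligned the reads to the pig assembly Sscrofa11.1 (Hisat2), took out PCR duplicates (nudup) and counted the rest per gene (QuasR). The deposited values are raw counts per gene and library, in a full table of 30185 genes per compartment and a table filtered by the authors on CPM (limit not given in the sources used here). Library totals were 2415216 to 7081556 counts, 5.20 to 16.9% of them in ribosomal RNA genes. Every sample column was mapped to its library by label (0 unmapped).

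From the counts, stages were compared in each compartment with edgeR 4.0.16 (R 4.3.3, TMM, quasi-likelihood F-test, filtered table, all genes tested together, Benjamini-Hochberg adjustment). DESeq2 1.42.0 and edgeR's robust GLM were alternatives, each with its own largest p called in LE as the limit elsewhere. The paper itself used the robust GLM, with DESeq2 as a check. In LE the quasi-likelihood test called 398 genes and the robust GLM 1411, so a member not called here may have been called by the authors' test. Compartments and interactions were tested in 1 joint edgeR fit with the gilt, nested in stage, as a block, over 13887 and 9727 genes. The block rests on the design, since same-numbered libraries come from 1 gilt. The median correlation of their deviations from group means was 0.165 over 45 pairs (35 over 0.1), against -0.0513 over 135 pairs of different gilts. The quasi-likelihood fits were tested on simulated data.

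The members, the other gene lists and the markers were chosen with earlier results of these data known. Members called by the quasi-likelihood test or by both other tools were named, then the 3 with the smallest p of the rest. For levels, members at least 4-fold above their lowest compartment and called were named. ALDOC met this rule too, with a mean of 3.40 CPM in GE and 0.796 CPM in BV, but is not described with the levels. PFKP, PDK4, PCK2 and GAPDH in LE, PDK1 in BV, and HK1, GBE1, PDK4, PYGB, ENO1 and PKM by level were added after their values were seen. Stage values of SLC2A1 in GE and S and of PFKFB3 in S are also given outside these rules. Per-kilobase levels used the union of exons of the RefSeq annotation of Sscrofa11.1. Other normalization, filters and limits, and leaving out each library, were tried as alternatives.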

Additional observations from a re-analysis of the deposited data

Results flagged for a closer look

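In 16 of 258 groups of 4 libraries of a member, the highest or lowest library stood farther from the nearest of the others than Dixon's 95% limit, and chance alone gives about 1 in 20 such groups. 8 of the 16 concerned C128. SLC5A1 in LE had 454 CPM in C128, the highest of its group, against 56.2-71.3 CPM in the other cyclic gilts. PFKL in LE had 49.8 CPM in C128, the highest of its group, against 22.3-26.2 CPM in the other cyclic gilts. PFKM in GE had 11.5 CPM in C128, the highest of its group, against 3.43-4.61 CPM in the other cyclic gilts. PFKFB2 in GE had 38.2 CPM in C128, the highest of its group, against 18.0-18.2 CPM in the other cyclic gilts. TPI1 in LE had 76.5 CPM in C128, the highest of its group, against 31.1-35.2 CPM in the other cyclic gilts. PGAM1 in S had 58.0 CPM in C128, the highest of its group, against 41.3-44.0 CPM in the other cyclic gilts. PDK1 in LE had 21.9 CPM in C128, the highest of its group, against 9.78-11.4 CPM in the other cyclic gilts. PC in LE had 54.3 CPM in C128, the highest of its group, against 10.3-17.7 CPM in the other cyclic gilts.

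The other such libraries were spread over several gilts. SLC2A12 in S had 8.69 CPM in C40, the highest of its group, against 6.16-6.56 CPM in the other cyclic gilts. HK1 in S had 62.7 CPM in P139, the highest of its group, against 49.7-51.4 CPM in the other pregnant gilts. PFKP in LE had 194 CPM in P43, the highest of its group, against 105-111 CPM in the other pregnant gilts. ALDOA in S had 142 CPM in P41, the highest of its group, against 115-119 CPM in the other pregnant gilts. PGAM1 in S had 44.2 CPM in P41, the highest of its group, against 34.9-36.5 CPM in the other pregnant gilts. PDHA1 in S had 78.4 CPM in C78, the lowest of its group, against 103-103.9 CPM in the other cyclic gilts. PDHB in LE had 51.6 CPM in C78, the lowest of its group, against 86.7-91.9 CPM in the other cyclic gilts. PDK1 in BV had 205 CPM in C78, the highest of its group, against 86.7-105 CPM in the other cyclic gilts.

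The difference between stages differed between compartments, by the interaction term, for SLC2A3 between LE and BV (difference of log2 fold changes -3.72) and between LE and S (-3.39), and for PFKFB3 between LE and BV (2.08) and between LE and S (1.93).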

How the results depend on the processing

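The number of members called between the stages depended most on the test and the limit. In LE, GE, BV and S it was 4, 2, 1 and 0, against 8, 10, 6 and 0 with DESeq2 and 12, 9, 7 and 1 with the robust GLM. At a false discovery rate of 5% it was 8 in LE (10.7% of all genes), 3 in GE (1.86%) and 6 in BV (8.63%), and at 10% 12 in LE (18.8%), 9 in GE (8.16%) and 13 in BV (17.6%). In S it was 0 at both. Without the filter it was 2 in BV. With 1 library left out it ranged over 3-5 in LE, 1-3 in GE and 1-3 in BV. For other genes of the pathway it was, in the same order, 11, 6, 6 and 1 with DESeq2, 10, 6, 7 and 4 with the robust GLM, 5 in LE and 1 in GE without the filter and 1 in LE with filterByExpr, and 0-3, 0-1, 0-3 and 0-1 in the 4 compartments with 1 library left out.

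Between compartments, cyclic gilts alone gave 13 members for LE against GE and 0 for BV against S, and pregnant gilts alone 15 for LE against GE, 12 for LE against BV, 12 for GE against BV, 12 for GE against S and 0 for BV against S, with fewer libraries in each of these fits. With 1 gilt left out BV against S ranged over 1-3. The interaction gave, at a false discovery rate of 5%, 2 members for LE against GE, 5 for LE against BV and 4 across all, and 1-3 for LE against BV, 1-2 for LE against S and 1-2 across all with 1 gilt left out. Over genes detectable in at least 1 compartment it gave 1 for LE against S. With no replicate block, that is, without pairing libraries of a gilt, members called between compartments numbered 22 for LE against GE, 23 for LE against BV, 20 for LE against S, 22 for GE against BV, 18 for GE against S and 4 for BV against S, and interactions 0, 3, 1 and 2 for LE against GE, BV and S and across all. The member lost for LE against S was PFKFB3 (difference of log2 fold changes 1.88, adjusted p = 0.0244).

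Of the 149 log2 fold changes between stages of detectable members, 33 changed sign in at least 1 setting, none of them called: 5 with the robust GLM, 2 with filterByExpr, 1 with RLE scaling, 1 with DESeq2 and 33 with 1 library left out. SLC5A1 in LE went from -1.07 to 0.04 with the robust GLM and 0.27 without C128, and PFKFB2 in LE from -0.01 to at most 0.21 with 1 library left out. Of 177 named log2 fold changes under other settings 138 kept their side of the limit, 37 passed it newly and 2 lost it, and with 1 library or gilt left out 256 of 284 kept it. The cause of these moves was not tested.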
